A study of Mus musculus with 12 samples.

Results

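The genes described here encode the protein subunits of oxidative phosphorylation, the mitochondrial machinery that passes electrons from fuel molecules to oxygen and makes ATP. Members were chosen by symbol (Nduf with a, b, c, s or v and a digit, Uqcr, Cox4 to Cox8, Atp5, and mt-Nd, mt-Co, mt-Cytb and mt-Atp), leaving out names with -ps and rows without 10 counts in at least 3 of 12 libraries. Of 55487 rows in the count table, 111 had such a name, 13 of these were -ps names and 9 others were below the minimum, which left 89 members: 76 nuclear and 13 mitochondrial. The nuclear members were 7 core and 28 other subunits of complex I, 8 of complex III, 16 of complex IV and 17 of ATP synthase. Because the minimum uses the counts themselves, the presence of these genes is not a finding, and 87 of the 89 members reached 10 counts in all 12 libraries.

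The RNA came from mouse bone-marrow-derived macrophages, primary cells grown with macrophage colony-stimulating factor, and was sequenced after poly-A enrichment. The 4 groups were Fes+/+ cells given PBS, Fes+/+ cells given 1 µg/mL lipopolysaccharide (LPS), Fes-/- cells given PBS and Fes-/- cells given 1 µg/mL LPS, each for 4 hours and each with 3 libraries. Fes encodes a cytoplasmic tyrosine kinase of myeloid cells, and LPS is the component of bacterial outer membranes that is sensed through TLR4. Cells given PBS are also described as untreated, and the design text counts 3 mice per genotype. The labels name no promoter or cell type for the loss of Fes, and they give no strain or age.

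Complex I takes electrons from NADH, complex III passes them from ubiquinol to cytochrome c, complex IV hands them to oxygen, and the proton gradient these complexes build drives ATP synthase. Most subunits are nuclear genes whose products are imported, while the mitochondrial genome encodes the hydrophobic cores of the same complexes, so both genomes must supply each of them. Macrophages that sense LPS are known for turning from respiration towards glycolysis and for using the respiratory chain as a source of signalling oxidants.

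The libraries held 61016254 to 101027166 counts. Fes itself was counted at 169, 189 and 179 CPM (each count divided by its library's TMM-adjusted total and put on one common scale) in Fes+/+ PBS, 152, 163 and 171 in Fes+/+ LPS, 68.9, 66.4 and 70.5 in Fes-/- PBS and 35.1, 33.5 and 32.9 in Fes-/- LPS. Every Fes-/- library was below every Fes+/+ library, but Fes RNA was still counted. The 8 macrophage markers examined (Mrc1, Mertk, Fcgr1, Itgam, Lyz2, Cd68, Adgre1 and Csf1r) summed to 10400 to 15500 CPM in every library. Markers of B cells, T cells, dendritic cells, neutrophils, erythroid cells, mast cells, megakaryocytes and stroma summed to at most 8.05 CPM per list, with 2 of 5 erythroid and 1 of 3 megakaryocyte markers at 0 throughout. The 4 B cell markers, of which 1 passed the count filter, summed to 6.0 to 7.92 and 5.96 to 6.5 CPM in the Fes+/+ and Fes-/- PBS libraries and to 2.32 to 2.84 and 1.52 to 2.03 CPM in the LPS libraries. Stroma markers summed to 0.0669 to 0.553 CPM under PBS and 0.808 to 1.01 under LPS in Fes+/+ cells, and to 0.29 to 0.878 and 1.1 to 1.97 in Fes-/- cells. Dendritic cell markers summed to 0.841 to 1.13 and 1.38 to 1.8 CPM in Fes+/+ and to 1.03 to 1.21 and 1.89 to 2.28 in Fes-/- cells. Both sums were higher under LPS without overlap within each genotype, but few genes carried them. Of the dendritic cell markers only Xcr1 and Clec9a were higher without overlap. Zbtb46, Flt3 and Siglech overlapped, and Cd209a was at 0 in all LPS libraries. Of the stroma markers only Dcn was higher without overlap in both genotypes, and Lum in Fes-/- cells alone. The part of such cells in the results below was not tested. In these bulk samples, fewer cells of a type and less RNA per cell cannot be told apart.

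The first comparison asked what 4 hours of LPS did to the nuclear and the mitochondrial set, and its answer depended on what the counts were set against. The nuclear members took 0.671, 0.6 and 0.689% of all counts in Fes+/+ PBS libraries and 0.479, 0.42 and 0.438% in Fes+/+ LPS libraries. The Fes-/- cells gave 0.636, 0.645 and 0.708% under PBS and 0.446, 0.448 and 0.433% under LPS. Every LPS library lay below every PBS library, and the LPS mean was 0.683 times the PBS mean in Fes+/+ cells (0.446 ± 0.0302% against 0.653 ± 0.0471%, SD, n = 3 each). It was 0.667 times the PBS mean in Fes-/- cells (0.442 ± 0.00814% against 0.663 ± 0.0392%).

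The mitochondrial members took 1.81, 2.29 and 1.77% of counts in Fes+/+ PBS libraries, 1.39, 1.27 and 1.21% in Fes+/+ LPS, 1.5, 2.01 and 1.98% in Fes-/- PBS and 1.11, 1.14 and 1.34% in Fes-/- LPS. Again no LPS library reached a PBS library, and the LPS means were 0.658 and 0.656 times the PBS means in Fes+/+ and Fes-/- cells. The counts on the 6 abundant mitochondrial members were 2.7, 3.81 and 2.56 times those on the nuclear members in Fes+/+ PBS libraries, 2.89, 3.01 and 2.76 times in Fes+/+ LPS, 2.35, 3.11 and 2.79 times in Fes-/- PBS and 2.49, 2.55 and 3.07 times in Fes-/- LPS. These ratios overlapped across all 4 groups. Replicate 2 of Fes+/+ PBS stood apart with the highest ratio, the highest mitochondrial share and the lowest nuclear share of the PBS libraries.

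**Figure D1:**
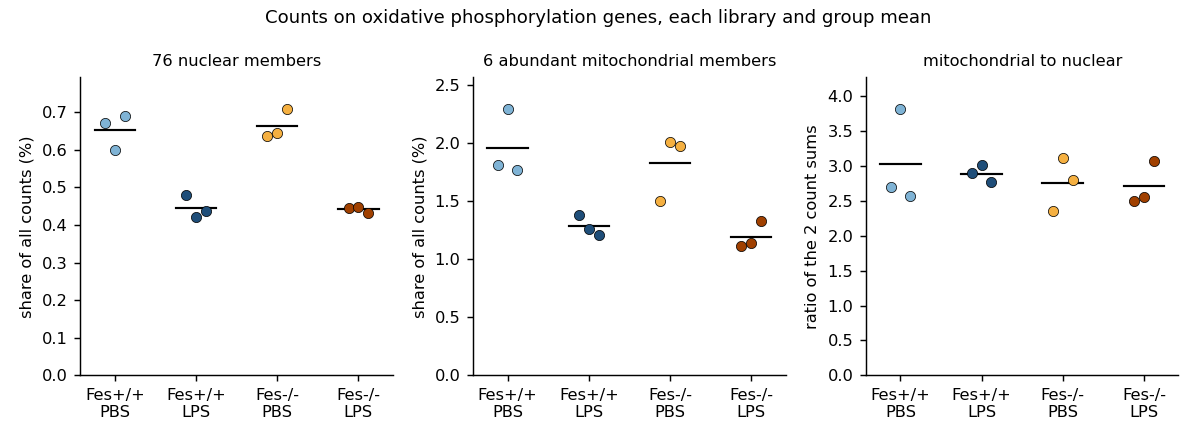
Share of all counts (%) on the 76 nuclear members (left) and the 6 abundant mitochondrial members (middle), and the ratio of these count sums (right), with 1 point per library and a bar at the mean of 3 libraries. Both shares were lower in every LPS library than in every PBS library, a direction that turns round on the TMM scale, and the ratios of the 4 groups overlapped.

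The make-up of the libraries differed between PBS and LPS. The 1850 genes raised at least 4-fold held 5.53 to 6.68% of the counts in PBS libraries and 40.1 to 41.6% in LPS libraries. TMM scaling sets each library against its typical gene instead, with factors of 1.35 to 1.402 in PBS and 0.707 to 0.737 in LPS libraries. On that scale the summed CPM was 1.28 times as high with LPS in both genotypes for the nuclear set, and 1.24 and 1.25 times as high in Fes+/+ and Fes-/- cells for the mitochondrial set. The median log2 change of all 15801 tested genes was -0.07 in Fes+/+ and -0.08 in Fes-/- cells with TMM, and -0.98 and -1.01 when libraries were scaled by their total alone. An LPS change is therefore given below relative to the typical gene, and its direction as a share of all counts is the opposite for most members.

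Relative to the typical gene, 54 of the 89 members were higher and 4 lower with LPS in Fes+/+ cells by edgeR's quasi-likelihood test (Benjamini-Hochberg adjusted p under 0.05), against 34.6% of all tested genes higher and 38.8% lower. Scaled by library totals alone, 72 of the 76 nuclear and 7 of the 13 mitochondrial members were called lower and 0 higher. Of all 15801 tested genes, 10828 were called lower and 2579 higher on that scale. In Fes-/- cells 49 members were higher and 4 lower on the TMM scale, against 34.3% and 38.9% of all tested genes. By library totals 74 nuclear and 8 mitochondrial members were called lower and 0 higher, beside 11064 of all tested genes lower and 2510 higher. The median member stood at 0.29 in Fes+/+ and 0.28 in Fes-/- cells on the log2 scale, with 0.28 and 0.27 for the nuclear and 0.38 and 0.36 for the mitochondrial set. The nuclear median stood 0.35 above that of all tested genes in both genotypes, but only 0.04 and 0.03 above it in Fes+/+ and Fes-/- cells with log2(TPM + 1). Of the 76 nuclear members, 42 were called higher in both genotypes, 4 lower in both and 22 in neither, and 0 were called in opposite directions. The 4 lower calls include Cox6b2, which met the count minimum only through its PBS libraries, so that call is not read as a result. The remaining calls were 6 higher in Fes+/+ cells alone and 2 in Fes-/- cells alone. The interaction test called a difference between genotypes for none of these (edgeR adjusted p = 1.0).

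**Figure D2:**
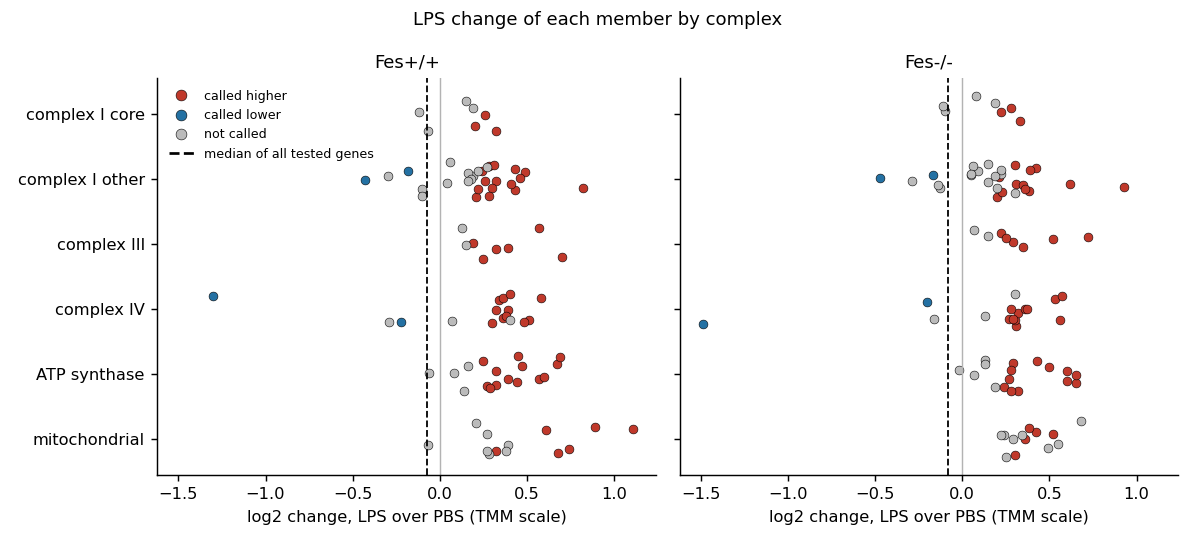
Log2 change with LPS on the TMM scale for each of the 89 members, 1 point per gene, by complex and in each genotype, with red for called higher, blue for called lower, grey for not called and a dashed line at the median of all tested genes. Most points lie right of that line in every class, and they would lie left of 0 if libraries were scaled by their totals.

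Of the 7 core subunits of complex I, which hold its flavin, iron-sulphur clusters and quinone site on the nuclear side, 3 were called higher relative to the typical gene and 0 lower in each genotype (median 0.19 in both), although their summed share of all counts under LPS was 0.603 and 0.59 times the PBS mean. That is 42.9% of these few genes, near the 34.6% and 34.3% of all tested genes called higher. Ndufs1, which carries iron-sulphur clusters, read 64.1, 53.6 and 57.1 CPM under PBS and 71.7, 68.7 and 68.9 CPM under LPS in Fes+/+ cells. Its Fes-/- values were 58.0, 57.9 and 60.7 against 70.9, 73.5 and 70.2 CPM. The groups did not overlap in either genotype, with log2 changes of 0.26 ± 0.07 (SE, adjusted p = 0.0047) and 0.28 ± 0.07 (0.00268). Ndufv1, which binds NADH and the flavin, changed by 0.20 ± 0.08 (0.0392) and 0.22 ± 0.08 (0.0258). It stood below the typical gene when log2(TPM + 1) was used, at -0.05 and -0.02. Ndufs8, another iron-sulphur subunit, stood at -0.12 ± 0.09 (0.241) and -0.11 ± 0.09 (0.273), and did not pass the test in either genotype.

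Ndufs4 showed the largest LPS change of the 35 nuclear complex I members relative to the typical gene in both genotypes. This accessory subunit (ENSMUSG00000021764, GRCm38 chromosome 13, 114287795 to 114388258, minus strand) helps to hold the NADH-binding module on complex I, and its loss in mice is a model of Leigh syndrome. It read 21.5, 18.2 and 22.4 CPM under PBS and 37.5, 35.2 and 36.9 CPM under LPS in Fes+/+ cells. In Fes-/- cells the values were 19.8, 18.7 and 21.8 against 40.1, 40.1 and 34.8 CPM. Every LPS library was above every PBS library, with log2 changes of 0.82 ± 0.09 (adjusted p = 1.32e-06) and 0.93 ± 0.09 (3.27e-07), or 1.77-fold and 1.91-fold. In TPM, which is scaled by gene length and to a fixed library sum, it went from 35.4 ± 3.62 to 32.6 ± 1.21 and from 35.6 ± 1.61 to 34.5 ± 2.37 (SD, n = 3 each).

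The other complex I subunits, which surround the core, were called higher in 15 of 28 and lower in 2 of 28 cases in Fes+/+ cells (median 0.23) and in 12 and 2 cases in Fes-/- cells (median 0.21), while their summed share of all counts under LPS was 0.61 and 0.595 times the PBS mean. The called higher were 53.6% in Fes+/+ cells, against 34.6% of all tested genes. In Fes-/- cells they were 42.9%, near the 34.3% of all tested genes. Lower calls were 7.14% in each, against 38.8% and 38.9%. Ndufa9, which lies near the quinone site, read 50.4, 42.0 and 51.2 CPM under PBS and 65.5, 62.5 and 66.0 CPM under LPS in Fes+/+ cells. The groups did not overlap, and the change was 0.43 ± 0.08 (adjusted p = 0.000235), with 0.42 ± 0.08 (0.0003) in Fes-/- cells. Ndufb6, a membrane-arm subunit, changed by 0.49 ± 0.12 (0.00189) and 0.62 ± 0.12 (0.000277). Ndufv3 went the other way. This accessory subunit of the NADH-binding module (ENSMUSG00000024038, chromosome 17, 31520115 to 31531331, plus strand) read 45.5, 50.5 and 48.2 CPM under PBS and 38.0, 33.5 and 35.7 CPM under LPS in Fes+/+ cells. The Fes-/- values were 39.5, 46.8 and 51.6 against 33.4, 31.2 and 34.6 CPM. Its LPS libraries lay below all PBS libraries in each genotype, at -0.43 ± 0.09 (0.000779) and -0.47 ± 0.09 (0.000329). Its TPM went from 69.9 ± 3.87 to 27.1 ± 1.8 and from 68.9 ± 7.14 to 25.3 ± 1.56, so it was lower on both scales. Ndufa6, a small subunit of the matrix arm, was the other member called lower, by -0.18 ± 0.07 (0.0258) and -0.17 ± 0.07 (0.0364).

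In complex III, 6 of 8 members were called higher relative to the typical gene and 0 lower in each genotype (median 0.28 and 0.27), and the share of all counts under LPS was 0.675 and 0.663 times the PBS mean. That is 75% of these few genes, against 34.6% and 34.3% of all tested genes called higher. Uqcrfs1, the Rieske iron-sulphur protein that takes electrons from ubiquinol (ENSMUSG00000038462, chromosome 13, 30540308 to 30545362, minus strand), read 56.3, 47.4 and 60.3 CPM under PBS and 85.5, 87.5 and 93.0 CPM under LPS in Fes+/+ cells. Fes-/- cells gave 56.8, 50.6 and 56.0 against 90.5, 97.3 and 82.1 CPM. The libraries did not overlap, and the changes were 0.70 ± 0.09 (adjusted p = 7.69e-06) and 0.72 ± 0.09 (5.26e-06). Its TPM went from 186 ± 21.8 to 157 ± 7.62 and from 192 ± 11.8 to 161 ± 12.1. Uqcrc2, a core protein, changed by 0.57 ± 0.07 (3.84e-06) and 0.52 ± 0.07 (1.02e-05), and Uqcrb, a small subunit that contacts cytochrome b, by 0.39 ± 0.09 (0.00168) and 0.35 ± 0.09 (0.00362). Uqcrh, the hinge protein, changed by 0.25 ± 0.08 (0.0104) and 0.29 ± 0.08 (0.00424) and stood at -0.02 against the typical gene in Fes+/+ cells with log2(TPM + 1). Uqcr10 and Uqcr11 did not pass the test in either genotype.

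Complex IV had 11 of 16 members called higher in each genotype relative to the typical gene (median 0.36 and 0.30). That is 68.8%, against 34.6% and 34.3% of all tested genes. Cox7a2l was called lower in both. Cox6b2 was also called lower, but it met the count minimum only through its PBS libraries, so that call is not read as a result. The share of all counts on complex IV under LPS was 0.669 and 0.655 times the PBS mean. Cox7a2, the form of subunit 7a found in most tissues (ENSMUSG00000032330, chromosome 9, 79755361 to 79759878, minus strand), read 53.8, 44.0 and 52.1 CPM under PBS and 80.1, 72.3 and 72.1 CPM under LPS in Fes+/+ cells. Fes-/- cells had 47.4, 45.6 and 52.1 against 74.6, 72.9 and 68.4 CPM. All LPS libraries were above all PBS libraries, at 0.58 ± 0.09 (adjusted p = 2.34e-05) and 0.57 ± 0.09 (2.73e-05). Its TPM went from 246 ± 25.2 to 192 ± 11.9 and from 247 ± 8.6 to 186 ± 6.33. Cox6c changed by 0.48 ± 0.09 (0.000208) and 0.56 ± 0.09 (4.54e-05), and Cox5a, a subunit on the matrix side, by 0.51 ± 0.1 (0.000224) and 0.53 ± 0.1 (0.000145). Cox7a2l, which joins complexes III and IV into supercomplexes, was lower in all LPS libraries. It read 101, 108 and 114 against 90.3, 89.9 and 97.0 CPM in Fes+/+ cells and 99.3, 100 and 109 against 95, 89.9 and 84.1 CPM in Fes-/- cells. Its changes were -0.22 ± 0.07 (0.0142) and -0.20 ± 0.07 (0.0256), and its TPM went from 339 ± 19.9 to 151 ± 7.5 and from 335 ± 5.15 to 148 ± 7.43.

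ATP synthase, the complex that makes ATP from the proton gradient, had 13 of 17 members called higher relative to the typical gene in Fes+/+ cells (median 0.32) and 12 of 17 in Fes-/- cells (median 0.28), with 0 lower in both, while its share of all counts under LPS was 0.737 and 0.722 times the PBS mean. The called higher were 76.5% and 70.6%, against 34.6% and 34.3% of all tested genes. Atp5b, the catalytic beta subunit (ENSMUSG00000025393, chromosome 10, 128083273 to 128090391, plus strand), read 504, 383 and 471 CPM under PBS and 772, 680 and 714 CPM under LPS in Fes+/+ cells. Values in Fes-/- cells were 458, 473 and 487 against 740, 767 and 721 CPM. The LPS libraries were above all PBS libraries, with changes of 0.67 ± 0.1 (adjusted p = 1.57e-05) and 0.65 ± 0.1 (2.18e-05). Its TPM went from 496 ± 66.8 to 412 ± 27.7 and from 535 ± 10 to 427 ± 9.93. The alpha subunit, Atp5a1, changed by 0.60 ± 0.08 (7.26e-06) and 0.60 ± 0.08 (7.39e-06), and Atp5pb, subunit b of the stator stalk, by 0.57 ± 0.08 (7.16e-06) and 0.60 ± 0.08 (4.29e-06). Atp5md, a small membrane subunit that joins ATP synthase dimers, changed by 0.69 ± 0.1 (1.11e-05) and 0.65 ± 0.1 (2.13e-05). Atp5c1, the rotating gamma subunit, stood at 0.08 ± 0.08 (0.353) and 0.07 ± 0.08 (0.399) and did not pass the test.

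The make-up of the nuclear set does not depend on the scaling, since each member's share of the counts on the 76 nuclear members uses no library factor. Between PBS and LPS, 11 members had a higher share without overlap of the libraries in both genotypes (Ndufs4, Uqcrfs1, Atp5md, Atp5b, Atp5a1, Cox7a2, Atp5pb, Uqcrc2, Cox5a, Ndufb6 and Cox6c), 24 had a lower share without overlap in both, and 0 differed in opposite directions. The 24 include Cox6b2, which met the count minimum through its PBS libraries. The shares in a set have a fixed sum, so a member that changed less than the whole set has a lower share without itself being lower. The summed CPM of the set was 1.28 times as high with LPS on the TMM scale in both genotypes. Atp5c1, not called in either genotype, is among the 24, at 0.82 and 0.822 times its PBS share. Shares of this kind within a set have no counterpart over all genes, for which the CPM did not overlap and was higher for 35.4% and lower for 39.8% in Fes+/+ cells and for 36.3% and 41% in Fes-/- cells. Ndufs4 held 0.432, 0.412 and 0.447% of the nuclear-set counts in Fes+/+ PBS libraries and 0.576, 0.593 and 0.611% in Fes+/+ LPS libraries, a ratio of 1.38, and the ratio was 1.49 in Fes-/- cells. Atp5b went from 9.41 ± 0.737 to 11.7 ± 0.23% and from 9.94 ± 0.415 to 12.2 ± 0.21%, ratios of 1.24 and 1.23. Leaving out Cox6b2, which met the count minimum through its PBS libraries, the lowest ratios were those of Ndufv3 (0.574 and 0.567) and, among members without overlap in both genotypes, Ndufb2 (0.633 and 0.641), Cox7a2l (0.664 and 0.685) and Ndufa6 (0.683 and 0.697). Across the 76 nuclear members the log2 changes of both genotypes had a Pearson r of 0.98, across all 15801 genes 0.97. These are correlations across genes, which are not replicates, between changes measured in separate libraries. The 76 include Cox6b2, which had the lowest change in both genotypes (-1.3 in Fes+/+ and -1.49 in Fes-/- cells). Their r therefore rests in part on a gene that met the count minimum through its PBS libraries, and r without it was not computed.

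**Figure D3:**
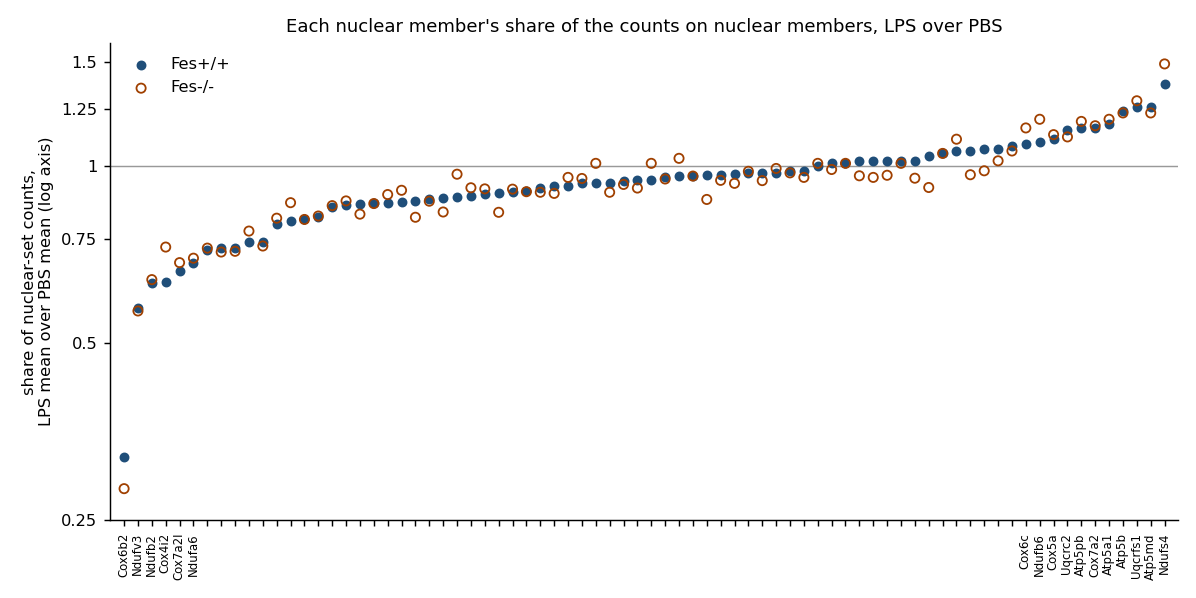
Ratio of the mean share of nuclear-set counts under LPS to that under PBS (log axis) for each of the 76 nuclear members, filled for Fes+/+ and open for Fes-/-, ordered by the Fes+/+ ratio, with names under the 6 lowest and 11 highest. The points of both genotypes lie close together, from 0.574 and 0.567 for Ndufv3 to 1.38 and 1.49 for Ndufs4, with Cox6b2, which met the count minimum through its PBS libraries, drawn below them.

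Several subunits of complex IV exist as isoforms, of which 1 is found in most tissues and the others are known from heart, muscle, lung or testis. The genes of the ATP synthase c subunit are given further below. Levels per length (TPM) were set by the widespread form in every pair, and the mean TPM of every form was lower with LPS. In Fes+/+ cells Cox4i1 had 580 ± 49.6 TPM under PBS and 387 ± 7.16 under LPS against 1.46 ± 0.642 and 0.622 ± 0.376 for Cox4i2, the form known from lung and hypoxia. Cox6a1 had 728 ± 22.7 and 472 ± 34.8 TPM against 4.97 ± 1.01 and 3.41 ± 0.731 for the heart and muscle form Cox6a2. Subunit 7a was present as Cox7a2 with 246 ± 25.2 and 192 ± 11.9 TPM and as the heart and muscle form Cox7a1 with 10.6 ± 2.0 and 5.75 ± 0.914 TPM, and the subunit 8 gene Cox8a had 664 ± 18.1 and 427 ± 27.4 TPM. Cox8b and Cox8c did not exceed 1 count in a library and are not members. Cox5a (193 ± 21.8 and 142 ± 9.03 TPM) and Cox5b (316 ± 9.34 and 208 ± 15.3 TPM) are different subunits despite their names.

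Cox6b2, the testis form of subunit 6b, had 40, 29 and 54 counts in Fes+/+ PBS libraries and 6, 11 and 8 in Fes+/+ LPS libraries, and 37, 31 and 36 against 8, 8 and 8 counts in Fes-/- cells. All 6 PBS libraries but only 1 LPS library reached 10 counts, so the gene met the count minimum through the PBS groups. Its lower values are given as a description, and its lower call with LPS is not read as a result. With at most 54 counts per library its level was small beside the 710 ± 27.4 TPM of Cox6b1 in Fes+/+ PBS cells. With 7 libraries at 10 counts it was among the members nearest to the count minimum, together with Cox4i2, which had 16, 19 and 33, then 13, 12 and 3, then 10, 31 and 50, then 19, 17 and 17 counts in the 4 groups. Just outside was Ndufb4c, with 2 libraries at 10 counts or more and a highest count of 14, followed by Cox6c2, with a highest count of 7. The c subunit of the ATP synthase rotor is made from 3 genes with the same mature protein, and their LPS changes were given separately: Atp5g3 by 0.47 ± 0.1 (0.000597) and 0.43 ± 0.1 (0.00133), Atp5g1 by 0.32 ± 0.11 (0.0157) and 0.28 ± 0.11 (0.0313) and Atp5g2 by -0.06 ± 0.07 (0.435) and -0.02 ± 0.07 (0.797). No test was made between these 3 genes. The share of Atp5g2 in the nuclear set was lower without overlap in both genotypes, at 0.743 and 0.775 times its PBS share.

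**Figure D4:**
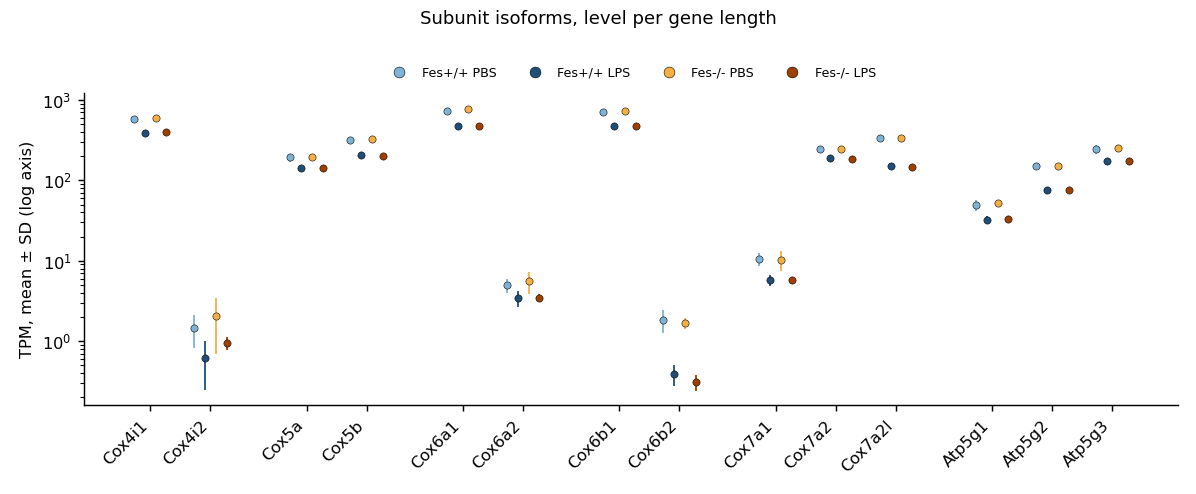
TPM (length-scaled level, log axis) of subunit isoforms in the 4 groups, as mean and SD of 3 libraries. In each pair with a tissue-restricted form that form lies far below the widespread form, and the mean TPM of every form is lower with LPS, although most forms are higher relative to the typical gene.

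Ndufa4, now assigned to complex IV, stands beside AA467197 (also called Nmes1), a related small protein that is known to take its place in complex IV under inflammatory stimulation. Ndufa4 read 67.5, 62.1 and 68.0 CPM under PBS and 89.0, 84.6 and 80.6 CPM under LPS in Fes+/+ cells, a change relative to the typical gene of 0.36 ± 0.09 (edgeR adjusted p = 0.00171). The Fes-/- change was 0.32 ± 0.09 (0.0041), and in Fes+/+ cells the TPM went from 221 ± 9.97 to 148 ± 7.02. AA467197 is not a member by its symbol. It read 0.493, 0.334 and 0.613 CPM under PBS and 162, 179 and 184 CPM under LPS in Fes+/+ cells. Values under the Fes-/- genotype were 0.591, 0.948 and 0.269 against 170, 161 and 143 CPM. The groups lay far apart, with log2 changes of 8.50 ± 0.3 (9.41e-11) and 8.01 ± 0.29 (1.25e-10). The other relative, Ndufa4l2, had at most 2 counts in a library and is not a member.

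Of the 13 mitochondrial members, 6 were abundant and 7 scarce, and 6 of the scarce ones lie side by side in the mitochondrial genome. The 6 abundant members (mt-Nd1, mt-Nd2, mt-Co1, mt-Nd4, mt-Nd5 and mt-Cytb) read 642 to 8900 CPM, with mt-Co1, the catalytic subunit of complex IV, highest. The neighbours mt-Co2, mt-Atp8, mt-Atp6, mt-Co3, mt-Nd3 and mt-Nd4l, from 7013 to 10173 on chromosome M, read 0.207 to 17.9 CPM, although they are cut from the same long precursor RNA as the genes on both sides. The seventh scarce gene is mt-Nd6, which lies apart from them between mt-Nd5 and mt-Cytb and on the other strand. Unprocessed pseudogenes on chromosome 1, between 24611535 and 24616197 (GRCm38), hold a second copy of this part of the genome. Their transcripts matched mt-Co2, mt-Atp6, mt-Co3 and mt-Nd4l without a difference over at least 99% of each gene, and mt-Nd3 with 99.7% identity over 345 bases. Of mt-Atp8, which lies inside the same stretch, transcripts matched only 21.1%. The copy also held 876 of the 1378 bases of the abundant mt-Nd4 without a difference and 483 of the 1545 bases of mt-Co1 with 1 difference. The sources used here do not say how reads that match both places were counted. The part of the copy in these low values was not tested, so the values of the 6 genes are uncertain. Reads from the copied parts of mt-Nd4 and mt-Co1 are uncertain in the same way.

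Windows of 60 bases are shown for a gene inside and a gene outside the copied stretch. The first pair is from mt-Co3, complex IV subunit 3 (transcript bases 362 to 421), and from its copy Gm28437 (chr1:24613189-24613971), and has 0 differences over the window and over all 783 aligned bases.
mt-Co3: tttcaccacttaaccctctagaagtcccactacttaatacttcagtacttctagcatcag
Gm28437: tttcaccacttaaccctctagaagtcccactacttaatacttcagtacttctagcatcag
The second pair is from mt-Cytb, the mitochondrial subunit of complex III (transcript bases 543 to 602), and from Gm11410 (chr4:80003989-80005131), its closest relative found outside the mitochondrial genome, with 92.9% identity and 81 differences over 1142 bases. Capitals mark the 4 bases of this window that differ.
mt-Cytb: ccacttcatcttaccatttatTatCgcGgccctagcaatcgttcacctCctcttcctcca
Gm11410: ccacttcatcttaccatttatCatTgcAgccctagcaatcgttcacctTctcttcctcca
All 4 sequences were read 5′ to 3′ along the transcripts of GENCODE M21. The copy's row Gm28437 was itself counted, with 756 to 1473 counts per library, against 401 to 812 for mt-Co3.

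With LPS, 6 of the 13 mitochondrial members were called higher relative to the typical gene and 0 lower in Fes+/+ cells, and 5 and 0 in Fes-/- cells, while as a share of all counts the set was lower, as given above. These are 46.2% and 38.5% of the set, near the 34.6% and 34.3% of all tested genes called higher. Of the 6 calls in Fes+/+ cells, 4 were genes of the copied stretch (mt-Co2, mt-Atp6, mt-Co3 and mt-Nd3), and the others were mt-Co1, of which the copy holds a part, and mt-Nd6. mt-Co1 read 6550, 7920 and 6540 CPM under PBS and 8900, 8780 and 8550 CPM under LPS in Fes+/+ cells. Its values in Fes-/- cells were 5500, 7080 and 6770 against 7500, 7670 and 8660 CPM. Its LPS libraries were above all PBS libraries, at 0.32 ± 0.12 (edgeR adjusted p = 0.0231) and 0.30 ± 0.12 (0.0313), whereas its TPM went from 21000 ± 2460 to 13600 ± 236 and from 20000 ± 2490 to 12500 ± 1140. mt-Nd1, a core subunit of complex I, read 1780, 2150 and 1590 against 2780, 2340 and 2130 CPM in Fes+/+ cells, where the groups overlapped (0.39 ± 0.17, 0.0505), and changed by 0.42 ± 0.17 (0.038) in Fes-/- cells. mt-Nd5, also of complex I, stood at 0.27 ± 0.16 (0.14) and changed by 0.36 ± 0.16 (0.0496).

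The complex I subunits mt-Nd2 (0.28 ± 0.15 and 0.34 ± 0.15) and mt-Nd4 (0.21 ± 0.16 and 0.22 ± 0.16) and mt-Cytb (0.27 ± 0.16 and 0.29 ± 0.16) did not pass the test in either genotype. mt-Nd6, the complex I subunit on the other strand, read 8.76, 8.87 and 8.14 CPM under PBS and 16.5, 13.6 and 17.8 CPM under LPS in Fes+/+ cells (0.89 ± 0.31, adjusted p = 0.0207) and 4.34, 7.52 and 12.2 against 9.68, 12.2 and 16.8 CPM in Fes-/- cells (0.68 ± 0.31, 0.0659). The libraries were apart in Fes+/+ and overlapped in Fes-/- cells. Whether the counting used strand is not given, so reads from the opposite strand cannot be told apart from its own. In the copied stretch, mt-Co2 changed by 0.68 ± 0.16 (0.00158) and 0.38 ± 0.16 (0.0425), and mt-Co3 by 0.74 ± 0.19 (0.00262) and 0.52 ± 0.19 (0.0224). mt-Atp6 changed by 0.61 ± 0.23 (0.0273) in Fes+/+ cells and stood at 0.49 ± 0.23 (0.0696) in Fes-/- cells. mt-Nd3 changed by 1.11 ± 0.3 (0.00438) and stood at 0.55 ± 0.29 (0.102), on 18 to 48 counts per library. mt-Atp8 (-0.07 ± 0.4 and 0.25 ± 0.38) and mt-Nd4l (0.38 ± 0.32 and 0.24 ± 0.32) did not pass.

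The mitochondrial counts rested on single libraries. In Fes+/+ cells 11 members were called without replicate 2 of Fes+/+ PBS and 3 without replicate 3 of Fes+/+ PBS, with 4 to 7 for the other libraries left out. The 4 came without replicate 1 of Fes+/+ PBS and without replicates 1 and 2 of Fes+/+ LPS. In Fes-/- cells 0 were called by edgeR without replicate 1 of Fes-/- PBS, which had the lowest values of all 6 abundant members, and 3, 2 and 2 without replicates 1, 2 and 3 of Fes-/- LPS. With the replicate number as a block within genotype, 10 were called higher in Fes+/+ cells, with mt-Nd1, mt-Nd2, mt-Nd5 and mt-Cytb added.

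**Figure D5:**
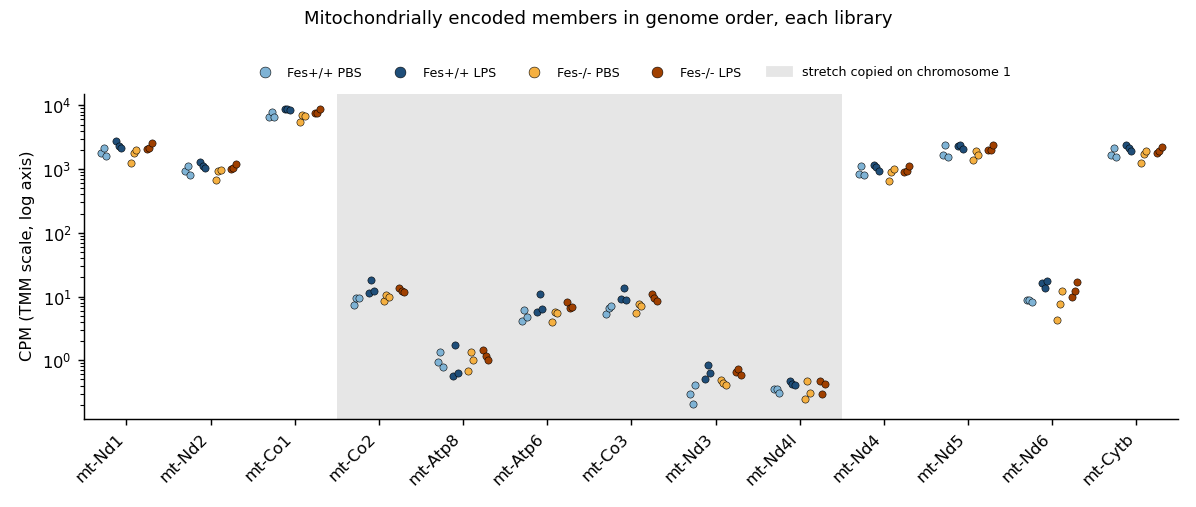
CPM on the TMM scale (log axis) of the 13 mitochondrial members in genome order, 1 point per library in 4 groups, with grey behind the 6 neighbouring genes of the stretch copied on chromosome 1, of which mt-Atp8 is matched by annotated transcripts only in part. The genes in grey and mt-Nd6 lie between 0.207 and 17.9 CPM and the others between 642 and 8900 CPM, and the LPS points, mostly higher here, are lower as a share of all counts.

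The second comparison asked whether loss of Fes changed these genes. Under PBS 0 of 89 members were called between genotypes, against 0.0823% of all tested genes, and under LPS 0 of 89, against 0.108%. The difference of the LPS effects was called for 0 of 89 members, against 0.019% of all genes. At an unadjusted p under 0.05, edgeR found 1 member under PBS, 0 under LPS and 0 for the difference, against 3.83%, 6.52% and 2.94% of all tested genes. DESeq2 and limma called 0 members in each. The 95% interval of the genotype difference lay within 1.25-fold in either direction for 66 of 89 members under PBS and 63 under LPS, and within 1.5-fold for 81 and 82. For the difference of the LPS effects these counts were 41 and 78.

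The 1 member was Ndufc2, a membrane-arm subunit of complex I, with 38.2, 37.4 and 41 CPM in Fes+/+ and 33.1, 31.4 and 35.9 CPM in Fes-/- cells under PBS. The groups did not overlap, and the difference was -0.22 ± 0.07 (95% interval -0.37 to -0.06, adjusted p = 0.975). Under LPS it read 49.0, 46.0 and 48.9 against 45.6, 44.6 and 41.4 CPM (-0.13 ± 0.07, adjusted p = 0.81). The smallest p in the other classes belonged to Ndufs8 (0.10 ± 0.09 under PBS and 0.10 ± 0.09 under LPS), Uqcrh under PBS (-0.10 ± 0.08), Uqcrc2 under LPS (-0.08 ± 0.07), Cox6c under PBS (-0.11 ± 0.09), Cox7c under LPS (-0.18 ± 0.1) and Atp5c1 in both (-0.08 ± 0.08 and -0.09 ± 0.08). Ndufa7 had the smallest p of the other complex I subunits under LPS (-0.16 ± 0.09). None passed the test. Under PBS the libraries did not overlap for 2 members, Ndufc2 and Ndufa6, both lower in Fes-/- cells, against 3.8% of all genes lower and 3.03% higher. Under LPS 9 members were lower without overlap (10.1%) and 0 higher, against 5.63% and 5.78% of all genes. The sign was negative for 58 of 89 members under PBS and 69 of 89 under LPS, with medians of -0.02 and -0.04. Over all tested genes the medians were 0.0 and -0.001, and their share of negative signs was not counted. Members are measured in the same libraries and are not replicates, so the sign counts are not read as a genotype effect. The widest intervals were those of scarce genes, such as Cox4i2 (0.46 ± 0.53 under PBS) and mt-Nd3 (0.54 ± 0.3), where a larger difference was not detectable at this depth. The Fes-/- mean share of counts was 1.02 times the Fes+/+ mean under PBS and 0.991 times under LPS for the nuclear set, and 0.934 and 0.93 times for the mitochondrial set, within the spread of the libraries.

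Genes that serve the complexes without being members were examined in lists, again relative to the typical gene and with no test between lists. Their counts stand beside the 34.6% higher and 38.8% lower of all tested genes in Fes+/+ cells and the 34.3% and 38.9% in Fes-/- cells. The direction turned round for most of the higher calls: of 184 tested genes in all lists (AA467197 included), 68 were called higher in Fes+/+ cells, and 54 of these had a lower mean TPM with LPS. In Fes-/- cells this held for 57 of 71, while all 56 and 54 genes called lower in Fes+/+ and Fes-/- cells also had a lower mean TPM. Higher on both scales in both genotypes were Cycs, Sco1, Coa5, Cox15, Ttc19, Pnpt1, Tefm, Mrpl52 and Gabpb1. The same held for AA467197, Cox11, Cox18 and Ppargc1b. Cytochrome c, Cycs, which carries electrons from complex III to IV, read 26.6, 12.1 and 21.2 CPM under PBS and 115, 97.8 and 115 CPM under LPS in Fes+/+ cells, without overlap (2.45 ± 0.23, edgeR adjusted p = 1.34e-06, and 2.44 ± 0.23, 1.39e-06, in Fes-/- cells). Cyc1, the cytochrome of complex III, changed by 0.61 ± 0.12 (0.000244) and 0.58 ± 0.12 (0.000345), and Ndufab1, the acyl carrier subunit of complex I, stood at 0.22 ± 0.1 (0.0552) and 0.21 ± 0.1 (0.0652). Of the 4 genes in this list of carriers and other subunits, 2 were called higher and 0 lower in each genotype (median 0.42 in Fes+/+ and 0.40 in Fes-/- cells). Of the 4 genes of complex II, which has no mitochondrial subunit, 1 was called higher and 0 lower in each (median 0.08 and 0.13): Sdhc by 0.32 ± 0.08 (0.00348) and 0.33 ± 0.08 (0.00272). Sdha stood at 0.05 ± 0.06 and Sdhd at 0.12 ± 0.08 in Fes+/+ cells.

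Assembly factors were called in both directions. Those of complex IV were called higher in 9 of 21 and lower in 5 of 21 cases in each genotype (median 0.08 and 0.12). Sco1, which delivers copper to complex IV, read 9.05, 7.25 and 9.37 against 60.7, 70.9 and 66.3 CPM in Fes+/+ cells (2.95 ± 0.1, adjusted p = 1.38e-12), with Coa5 at 1.69 ± 0.07 (1.51e-11) and Cox15, of heme A synthesis, at 1.03 ± 0.07 (2.54e-09). Of 14 factors of complex I, 3 were called higher and 3 lower in each genotype (median 0.17 and 0.10), among them Foxred1 (0.77 ± 0.08, 2.92e-07) and, lower, Ndufaf7 (-1.06 ± 0.13, 3.54e-06) and Tmem126b. Tmem126b read 26.6, 24.9 and 25.9 against 6.41, 6.29 and 6.28 CPM in Fes+/+ cells (-2.03 ± 0.08, 1.55e-11). Of 6 factors of complex III, 1 was higher (Ttc19, 1.85 ± 0.13, 6.35e-09) and 3 lower in each genotype (median -0.55 and -0.54), with Uqcc3 at -1.38 ± 0.13 (1.58e-07) and Bcs1l, which inserts the Rieske protein, at -1.27 ± 0.16 (2.98e-06). Of 4 factors of ATP synthase, 1 was higher (Tmem70, 0.28 ± 0.09, 0.00948) and 2 lower in each (median -0.23 and -0.14), Atpaf1 at -0.94 ± 0.1 (5.62e-07) and Atpaf2 at -0.45 ± 0.1 (0.000832).

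The genes that copy and read the mitochondrial genome were called mostly lower for replication and both ways for expression. Of 9 replication genes, 1 was higher and 5 lower in Fes+/+ and 1 and 6 in Fes-/- cells (median -0.89 and -0.70). Twnk, the mitochondrial helicase, read 6.05, 7.62 and 7.64 against 0.69, 1.22 and 0.933 CPM in Fes+/+ cells (-2.90 ± 0.2, adjusted p = 3.92e-09), with the nuclease Mgme1 at -1.87 ± 0.13 (3.21e-09) and the thymidine kinase Tk2 at -1.87 ± 0.13 (5.59e-09). Of 24 genes of transcription and RNA handling, 10 were higher and 10 lower in Fes+/+ and 10 and 9 in Fes-/- cells (median 0.08 and 0.04). Pnpt1, a mitochondrial RNA exonuclease, read 36.2, 28.9 and 33.1 against 203, 214 and 199 CPM in Fes+/+ cells (2.65 ± 0.1, 3.58e-12), the elongation factor Tefm changed by 1.91 ± 0.12 (9.9e-10) and Fastkd3 by -2.11 ± 0.14 (2.27e-09). The ribosomal RNAs mt-Rnr1 and mt-Rnr2 were both called higher, by 0.65 ± 0.1 (3.63e-05) and 0.84 ± 0.1 (2.34e-06) in Fes+/+ cells, in libraries enriched for poly-A RNA. Of 77 tested mitochondrial ribosomal protein genes, 26 were higher and 23 lower in Fes+/+ and 29 and 22 in Fes-/- cells (median 0.04 and 0.03), shares near or below those of all tested genes, with Mrpl52 (2.20 ± 0.11, 1.27e-10), Mrpl49 (-1.45 ± 0.09, 2.07e-09) and Mrps35 (-1.03 ± 0.1, 1.19e-07) as examples.

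Of 7 genes that couple the matrix to the cytosol, 4 were higher and 1 lower in Fes+/+ and 5 and 0 in Fes-/- cells (median 0.19 in both), among them the outer-membrane channels Vdac3 (0.97 ± 0.09, edgeR adjusted p = 1.45e-07) and Vdac2 (0.45 ± 0.08, 9.04e-05) and the ADP/ATP carrier Slc25a5 (0.32 ± 0.1, 0.00937). Of 11 tested regulators of nuclear respiratory genes, 7 were higher and 4 lower in Fes+/+ and 6 and 4 in Fes-/- cells (median 0.39 and 0.31). Tfeb, a factor that binds E-boxes and drives lysosomal and mitochondrial genes, read 30.7, 33.7 and 31.8 against 1.22, 0.748 and 1.1 CPM in Fes+/+ cells (-4.97 ± 0.15, 3.96e-13), far below its PBS libraries. The GABP beta subunits changed in opposite directions, Gabpb1 at 1.33 ± 0.08 (1.64e-09) and Gabpb2 at -1.14 ± 0.08 (3.25e-09). These lists held 0 genes called between genotypes under PBS or LPS or for the difference of the LPS effects.

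The promoters of nuclear subunit genes were searched for motifs of the factors known to act on them, in the 250 bases before each RefSeq start (GRCm38.p6). Of 76 nuclear members 63 matched a table entry, with 68 windows. CCGGAAG, the ETS motif read by GABP, was found on either strand in 11 of 68 windows (16.2%) and in 6.91% of all 32851 RefSeq windows. GCGCATGCG, the NRF-1 type, was in 6 (8.82%, against 1.45%), the CRE motif TGACGTCA in 4 (5.88%, against 1.55%) and AAGATGGCG, the YY1 type, in 1 (1.47%, against 0.606%). GGGANTTCC, the NF-kappaB type, was in 1 (1.47%, against 1.43%) and the E-box CACGTG in 7 (10.3%, against 6.02%). The 7 windows with the E-box belong to 6 genes, since Ndufa7 has 2 windows. All 6 genes were called higher with LPS relative to the typical gene in Fes+/+ cells and 5 in Fes-/- cells, where Ndufa7 did not pass the test (edgeR adjusted p = 0.127). In Fes+/+ cells 38 of the 63 members with a window were called higher. Of all tested genes 34.6% were called higher in Fes+/+ and 34.3% in Fes-/- cells. A link between the E-box and the LPS change was not tested. A match is a run of letters and not a measured site, and no test was made.

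Windows of 3 members called higher and of Ndufv3, called lower, are shown from 250 bases before the start to the base before it, 5′ to 3′ along the gene's strand, with the matched letters in capitals. Atp5l, subunit g of ATP synthase (chr9:44920743-44920992, minus strand), changed by 0.39 ± 0.07 (edgeR adjusted p = 0.000141) in Fes+/+ cells and holds the NRF-1 type 241, the ETS motif 212 and the E-box 147 bases before the start. Atp5g3 (chr2:73911327-73911576, minus strand), described above, has an E-box at 238 bases. Ndufa11, an accessory subunit in the membrane arm of complex I (chr17:56717512-56717761, plus strand), changed by 0.41 ± 0.09 (0.00102) and holds the CRE motif at 158 bases and the NRF-1 type on both strands at 60 and 59 bases, overlapping itself. The Ndufv3 window (chr17:31519865-31520114, plus strand) has no match to the 6 motifs. The windows shown are examples and do not stand for their groups. Those of Ndufs4 and Atp5b, both called higher, have no match to the 6 motifs either.
Atp5l: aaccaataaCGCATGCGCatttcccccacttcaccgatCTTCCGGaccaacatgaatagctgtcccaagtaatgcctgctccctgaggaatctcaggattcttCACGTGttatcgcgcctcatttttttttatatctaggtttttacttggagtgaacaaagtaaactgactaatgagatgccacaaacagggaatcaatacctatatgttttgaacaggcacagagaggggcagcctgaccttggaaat
Atp5g3: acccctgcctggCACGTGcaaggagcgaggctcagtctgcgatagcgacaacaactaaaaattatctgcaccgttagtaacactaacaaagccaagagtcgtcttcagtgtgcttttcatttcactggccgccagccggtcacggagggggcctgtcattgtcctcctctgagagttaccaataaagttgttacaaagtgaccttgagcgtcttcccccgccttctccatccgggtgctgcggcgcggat
Ndufa11: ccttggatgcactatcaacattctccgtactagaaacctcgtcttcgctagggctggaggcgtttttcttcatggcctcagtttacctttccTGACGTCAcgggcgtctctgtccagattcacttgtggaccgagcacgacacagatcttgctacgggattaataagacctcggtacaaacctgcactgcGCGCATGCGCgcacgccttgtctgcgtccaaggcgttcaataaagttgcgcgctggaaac
Ndufv3: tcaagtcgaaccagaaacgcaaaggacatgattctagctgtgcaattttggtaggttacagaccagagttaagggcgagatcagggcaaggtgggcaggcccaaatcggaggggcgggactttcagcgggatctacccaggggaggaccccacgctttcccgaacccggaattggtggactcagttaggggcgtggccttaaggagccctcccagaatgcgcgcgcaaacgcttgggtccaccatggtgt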

How the data were processed

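Poly-A RNA of 12 libraries (4 groups of 3) was analysed. Whole-number counts per Ensembl gene and TPM values were used as deposited by the authors. The submitters' processing notes name DESeq2 1.34.0, R 4.1.12, Picard 2.9.0 and STAR 2.7.8a, and the builds GRCm38 and mm9 with no role for either. Which program counted the reads is not stated in those notes. Lengths implied by counts and TPM lay within 1% of the exon lengths of GENCODE M21 for 9349 of 9482 genes, so positions were taken from that release.

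The count test was edgeR 4.0.16 in R 4.3.3: filterByExpr left 15801 genes, libraries were scaled with TMM factors, and 1 quasi-likelihood model over all 12 libraries (8 residual degrees of freedom) gave LPS against PBS in each genotype, the genotypes under each treatment and the difference of the LPS effects. Tests were two-sided, the Benjamini-Hochberg adjustment ran over all of these genes, and a call is an adjusted p under 0.05. Adjusted p-values without a tool name come from edgeR. They measure the spread between these libraries, which the titles mark as biological replicates without saying which mouse each came from. No 2 libraries held the same counts. Table rows that named no gene: 0.

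Members and gene lists were chosen with earlier results of these data known. Genes were named by rule: all mitochondrial members, per nuclear class the 3 smallest p for LPS in Fes+/+ cells and the smallest for each genotype comparison, fixed isoform pairs, up to 3 genes per pathway list, and members nearest to the count minimum. Other named members were singled out after their values were seen. The values of 1 gene that this rule names are not reported here.

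Alternatives were DESeq2 1.42.0, RLE factors, library totals alone, other filters, the libraries of a comparison alone, factors without mitochondrial genes, limma 3.58.1 on log2(TPM + 1) and log2(TPM + 0.1), a replicate block and each library left out. The deviations of same-numbered PBS and LPS libraries correlated in Fes+/+ cells (r of 0.141, 0.166 and 0.137) and in Fes-/- cells (0.068, 0.089 and 0.189). Different-numbered PBS and LPS libraries of the same genotype ranged from -0.133 to 0.06, below every same-numbered value. Libraries of different genotypes, which cannot share a mouse, ranged from -0.166 to 0.22. The numbers may therefore mark pairs, but these values cannot settle it. The main test used no pairing, and the replicate blocks are alternatives. If the numbers do mark pairs, the block within genotype is the closer model, and its counts of calls are given below. Sequence copies were searched with BLAST 2.17.0 over GENCODE M21 transcripts, and 0 nuclear members had a copy of at least 99% identity over at least 50% of their length. Promoter sequences are from RefSeq. The test was checked on simulated counts.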

Additional observations from a re-analysis of the deposited data

Results flagged for a closer look

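Names with -ps were left out of the members, yet 5 of the 13 such rows had 10 counts in at least 3 libraries. Ndufb1-ps (GRCm38 chromosome 12, 101968090 to 101977068) had a mean of 4306.5 counts per library, and GENCODE M21 lists it as a bidirectional-promoter non-coding RNA and not as a pseudogene. It read 32, 23.1 and 32.6 CPM under PBS and 121, 115 and 113 CPM under LPS in Fes+/+ cells, and 28.3, 22.2 and 28.7 against 115, 120 and 103 CPM in Fes-/- cells. The groups did not overlap, with log2 changes of 1.99 ± 0.13 (edgeR adjusted p = 3.08e-09) and 2.09 ± 0.13 (1.9e-09), above those of every member in both genotypes on the TMM scale. Ndufb1 encodes a small complex I subunit, and no row named Ndufb1 is among the members. The other rows were Cox5b-ps with a mean of 71.2 counts, Atp5pb-ps with 29.2, Atp5l2-ps with 29.2 and Ndufs5-ps with 27, and edgeR called none of these 4 with LPS in either genotype.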

How the results depend on the processing

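The direction of the LPS change depended on the scaling. In Fes+/+ cells 52 nuclear and 6 mitochondrial members were called with TMM factors, against 72 and 7 with library totals alone, 74 and 8 with log2(TPM + 1) and 74 and 8 with log2(TPM + 0.1), where every call outside TMM was lower. In Fes-/- cells 48 and 5 were called with TMM factors, against 74 and 8, 74 and 9, and 74 and 9 in the same order, again all lower outside TMM. In that order, 10828, 10932 and 10993 of all 15801 tested genes were lower and 2579, 2513 and 2535 higher in Fes+/+ cells. The Fes-/- numbers were 11064, 11201 and 11224 lower and 2510, 2445 and 2455 higher. Set against the median tested gene, the nuclear median was 0.35 higher with TMM factors, RLE factors, DESeq2 or library totals in each genotype, 0.29 with log2(TPM + 0.1) and 0.04 and 0.03 with log2(TPM + 1). Relative to that gene, Ndufv1 turned to -0.05 in Fes+/+ and -0.02 in Fes-/- cells and Uqcrh to -0.02 in Fes+/+ cells with log2(TPM + 1), centred or not. Mitochondrial calls changed most. With log2(TPM + 1) centred on the median gene, chosen after seeing the data, 10 and 11 were called in Fes+/+ and Fes-/- cells. On that scale the median change of all 15801 tested genes was 0.39 in each genotype. Of these genes 8740 were called higher in each, and 3879 and 3784 lower in Fes+/+ and Fes-/- cells. Among the 6 abundant members, also chosen after seeing the data, the main edgeR test with TMM factors called 1 in Fes+/+ and 3 in Fes-/- cells. Of these 6, mt-Nd4 and mt-Co1 are held in part by the chromosome 1 copy. DESeq2 called 9 and RLE factors gave 8 in Fes-/- cells. With a replicate block within genotype, 10 and 9 mitochondrial members were called and the nuclear counts were 54 and 54; a single replicate block over both genotypes gave 52 and 47 nuclear and 6 and 6 mitochondrial calls, and 0 between genotypes. Leaving out a library gave 42 to 57 nuclear and 3 to 11 mitochondrial calls in Fes+/+ cells and 38 to 57 and 0 to 6 in Fes-/- cells. The lowest and highest mitochondrial counts in Fes+/+ cells came without replicates 3 and 2 of Fes+/+ PBS, and in Fes-/- cells 0 came without replicate 1 of Fes-/- PBS and 3, 2 and 2 without replicates 1, 2 and 3 of Fes-/- LPS. The cause of these changes was not tested. The genotype comparisons and the difference of the LPS effects gave 0 calls among the members in edgeR with every alternative above, in DESeq2 and in limma. Scarce members (Cox4i2, Cox6b2, mt-Nd3, mt-Nd4l and mt-Atp8) had at most 134 counts per library, which limits what could be detected in them.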
